A study of Mus musculus with 6 samples.

Results

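The Bcl2 family holds the proteins that decide whether the outer membrane of the mitochondrion stays closed or is opened in a cell on its way to apoptosis. The 10 family genes followed here (Bcl2, Bcl2l1, Bcl2l11, Mcl1, Bax, Bak1, Bbc3, Pmaip1, Bid and Bad) were picked by gene name, with earlier results of these data known, and all 10 were found among 33924 gene symbols in the count tables. Of these, 9 had enough counts to be tested, among 14250 genes tested in all. The exception was Bcl2 itself.

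RNA was sequenced from E14 cells, a line of mouse embryonic stem cells, in 3 control libraries (labelled WT) and 3 libraries labelled Rif1-KO, all of them labelled day 0 and 2i medium. The protocol text common to the 6 libraries gives 4-OHT at 0.1 µM for 2 days, followed by 1 day of culture without it. The columns of the tables, however, are named with 2i in the control libraries and with TAM in the Rif1-KO libraries, so whether the controls also received the drug, or a different medium, cannot be told from the sources used here. A drug or medium effect and the loss of Rif1, a chromatin protein with known roles in replication timing and break repair, cannot then be told apart, and nothing says which part of Rif1 was removed, by which means, in how many clones, or whether the replicates are separate cultures.

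The libraries held 8383632 to 10980777 counts. Rif1 itself was read at 657 to 700.1 CPM (counts scaled to the size of the library) in control against 602 to 664 CPM in the Rif1-KO libraries, with overlapping groups, and the difference did not pass (edgeR adjusted p = 0.0509, log2 fold change −0.12 ± 0.05). Under an offset for GC content and transcript length Rif1 did pass, at −0.34 on the log2 scale. The gene total does not check a deletion of some of its exons, so groups are named by their labels only. Over all tested genes 50.9% changed, and the counts of changed markers that follow are read against that share. Of 7 pluripotency markers in the table Nanog, Klf4 and Dppa5a rose, Sox2 fell (log2 fold change −0.54 ± 0.05) and 3 did not pass. Their summed level ran from 4116 to 4379 CPM in control and from 4167 to 4517 CPM in Rif1-KO. Markers of most other states had far lower sums, which moved with the groups. The sums were 15.3 to 17.3 CPM against 29.9 to 32.5 CPM for 6 primitive endoderm markers, of which 5 rose. The remaining one, Sox7, was too low to be tested and went the other way, with 14 counts in control and 3 in Rif1-KO. For 6 trophectoderm markers the sums were 56.7 to 57.8 CPM against 147 to 162 CPM. Most of that was Krt8 (mean 22.5 against 74.2 CPM) and Krt18 (25.8 against 69.9 CPM), which rose. Eomes did not pass (edgeR adjusted p = 0.266), and Cdx2 was at 0 throughout. Too low to be tested were Gata3, with 8 counts in control and 35 in Rif1-KO, and Elf5, with 4 and 2. The sums were 40.7 to 51.8 CPM against 99.8 to 106 CPM for 3 neuroectoderm markers, of which Nes and Zic1 rose. Nearly all of that sum was Nes (mean 46.2 against 99.8 CPM). Pax6 was too low to be tested, with 9 counts in control and 12 in Rif1-KO. For 4 two-cell-like markers they were 0 to 0.364 CPM against 14.1 to 16.8 CPM, and all 4 rose. In every control library these 4, the primitive endoderm marker Sox17 and Zic1 lay below the limit of the filter on low counts (1.09 CPM). Each was tested only for its level in Rif1-KO, so these rises follow in part from the filter. For 6 fibroblast markers the sums were 11.4 to 15.8 CPM against 14.2 to 18.3 CPM, with Lum at 0 throughout and neither of 2 tested markers past the threshold. The part of these cells in the results below was not tested. In bulk RNA, fewer cells of a type and less RNA per cell cannot be told apart.

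Family members fall into classes by the conserved stretches (BH domains) they carry. The pro-survival proteins BCL2, BCL-XL (from Bcl2l1) and MCL1 hold their death-promoting relatives in a surface groove. BAX and BAK (from Bak1) are the proteins that assemble into pores, through which cytochrome c leaves the mitochondrion to start the caspase cascade. The BH3-only proteins BIM (from Bcl2l11), PUMA (from Bbc3), NOXA (from Pmaip1), BID and BAD carry stress signals, by filling the groove of the pro-survival proteins or by activating BAX and BAK. Pluripotent stem cells are known to sit close to the threshold of mitochondrial apoptosis, and MCL1 and BCL-XL are known as proteins on which their survival depends.

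Promoter sequences are shown for the pro-survival genes that rose together, Mcl1 and Bcl2l1, and for Bax, a pore-forming gene that fell. Each is the 250 bases before a transcription start listed by RefSeq on build GRCm38.p6, which is not the build of the counts (mm9, per the submitters' processing notes), printed 5′ to 3′ on the gene's strand. For Bcl2l1, which has 3 listed starts, the most upstream is shown, since the windows before the other two lie wholly within exons of the gene. The printed stretches hold no exon bases of their own gene in the GENCODE annotation of that build. Capitals mark matches to the motifs named below.
Mcl1, chr3:95658471-95658720, plus strand: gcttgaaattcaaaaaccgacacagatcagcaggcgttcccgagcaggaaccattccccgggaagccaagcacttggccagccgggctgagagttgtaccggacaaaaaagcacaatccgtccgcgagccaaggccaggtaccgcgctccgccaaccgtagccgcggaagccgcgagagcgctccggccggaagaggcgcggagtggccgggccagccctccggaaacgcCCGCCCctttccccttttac
Bcl2l1, chr2:152831729-152831978, minus strand: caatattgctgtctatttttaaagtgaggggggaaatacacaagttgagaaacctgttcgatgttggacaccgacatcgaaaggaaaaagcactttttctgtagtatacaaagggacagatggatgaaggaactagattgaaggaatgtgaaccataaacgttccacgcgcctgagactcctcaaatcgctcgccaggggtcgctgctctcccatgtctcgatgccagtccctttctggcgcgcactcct
Bax, chr7:45466899-45467148, minus strand: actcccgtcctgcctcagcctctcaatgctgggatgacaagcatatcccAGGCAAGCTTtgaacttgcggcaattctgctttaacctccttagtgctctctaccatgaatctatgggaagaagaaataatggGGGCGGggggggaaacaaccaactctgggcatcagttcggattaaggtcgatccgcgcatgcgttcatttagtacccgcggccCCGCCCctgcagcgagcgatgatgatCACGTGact

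The printed sequences differed in composition, with 64.4% G and C for Mcl1, 47.6% for Bcl2l1 and 54.0% for Bax. A search on both strands of the full windows of 300 bases (50 of them after the start) covered 8 motifs, and 9 of the 10 members had 15 such windows in the table. The GC box GGGCGG occurred in 10 of the 15 windows and in 35.7% of all mouse windows of that length. It is in capitals once in the Mcl1 sequence and in 2 places in the Bax sequence, and was in none of the 3 Bcl2l1 windows. The MYC E-box CACGTG, at the end of the Bax sequence, occurred in 2 of the 15 windows (Bax and Bbc3) and in 7.15% of all windows. The p53 half-site, in capitals near the start of the Bax sequence, occurred in 1 of 15 and in 8.36% of all windows. CCAAT was found in 4 of 15 windows, belonging to Bad, Bbc3 and Bcl2l11, against 37.4% of all windows. The STAT palindrome TTCNNNGAA (8.30% of all windows), TATAAA (13.6%), the cAMP response element TGACGTCA (1.79%) and the NRF1 core (0.971%) were in none of the 15. No pair of these motifs shares bases in the 3 printed sequences. A match describes letters only, and Pmaip1 was not among the genes with a window used here.

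Of the 9 members tested, 7 changed between the groups. Mcl1, Bcl2l1, Pmaip1 and Bbc3 rose, Bax, Bak1 and Bid fell, and Bcl2l11 and Bad did not pass. Changes were counted at an adjusted p under 0.05 in edgeR's quasi-likelihood fit over all tested genes, with log2 fold changes of Rif1-KO over control given ± standard error and levels ± SD (n = 3 libraries per group). In the same fit 50.9% of all tested genes changed, 26.1% higher and 24.8% lower, so that a count of 7 among 9 is read against about as many genes changed as unchanged. The median log2 fold change was 0.17 over the 9 members and 0.003 over all tested genes. Divided by role, 2 of 2 tested pro-survival members rose, 2 of 2 pore-forming members fell, and among 5 BH3-only members 2 rose, 1 fell and 2 did not pass. All 9 were above the limit of the filter on low counts (1.09 CPM) in every library of both groups, so none was tested only for its level in 1 group. The libraries of the groups did not overlap at 8 of the 9, which was so for 57.2% of all tested genes. With a GC and length offset, which corrects each library for the GC content and length of transcripts, the 9 members kept the same 4 higher and 3 lower calls, while the split over all tested genes went from 3722 higher and 3529 lower to 3004 and 4487.

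**Figure D1:**
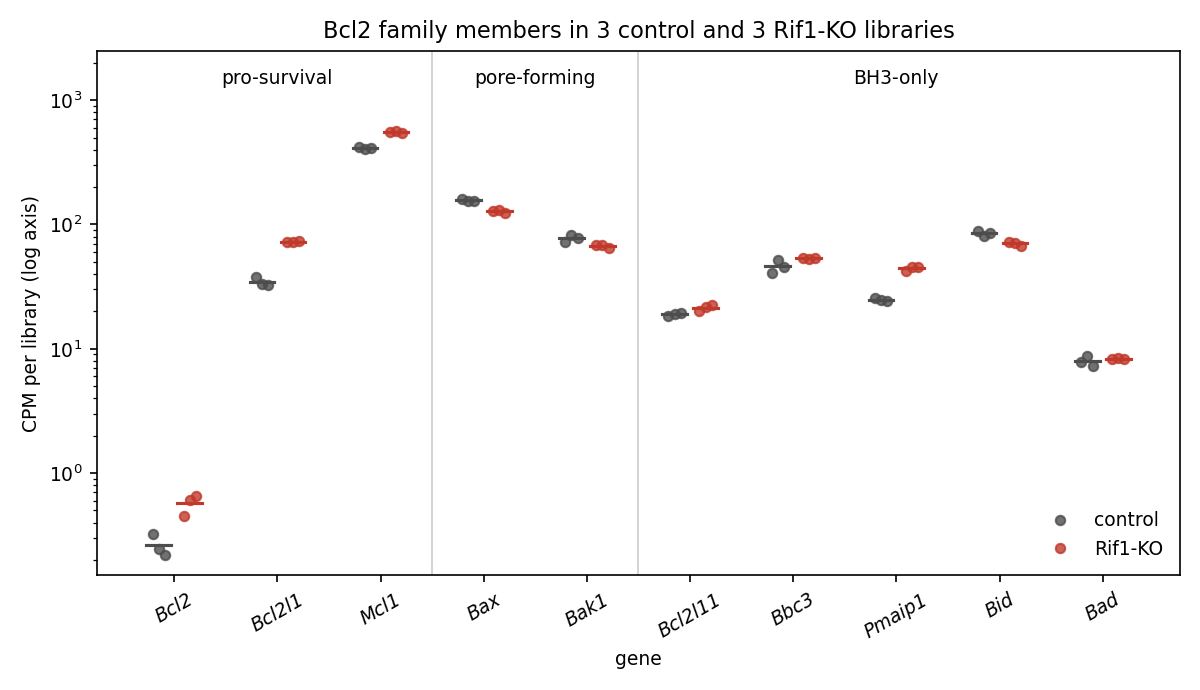
Level of each of the 10 genes in CPM (log axis) in 3 control libraries (grey) and 3 Rif1-KO libraries (red), with a bar at the group mean. Bcl2 lies below 1 CPM in all 6 libraries, Mcl1 at 403 CPM or more, and Bad is the gene whose groups overlap.

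Bcl2l1 had the largest change of the tested members. It encodes BCL-XL, with the short form BCL-XS from another splice choice, which a total over the gene cannot separate. Control libraries had 38.1, 33.0 and 32.3 CPM, and Rif1-KO libraries had 72.3, 72.4 and 73.6 CPM. The lowest Rif1-KO library was thus far above the highest control library, and the Rif1-KO libraries lay closer together than the controls. The mean rose 2.11-fold, from 34.5 ± 3.13 to 72.8 ± 0.720 CPM (edgeR adjusted p = 8.54e-11, log2 fold change 1.08 ± 0.07). Of all tested genes, 4.69% had a larger rise in log2 terms, while 6.55% were called with a change of 2-fold or more and 5.25% with a rise of that size. None of its exons overlaps another gene, and none of the 50-base stretches of its longest transcript recurs in another gene's transcripts.

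Mcl1 encodes a short-lived pro-survival protein that binds BAK and NOXA, and had the highest CPM of the members. Control libraries had 421, 403 and 409.6 CPM, and Rif1-KO libraries had 558, 561 and 543 CPM. The groups were well apart, with a rise of 1.35-fold in the mean, from 411 ± 9.17 to 554 ± 9.90 CPM (edgeR adjusted p = 1.13e-07, log2 fold change 0.43 ± 0.04). Only 2.39% of tested genes had a higher mean CPM in control. Like Bcl2l1 it shares no 50-base stretch with other genes.

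Bcl2, the gene the family is named after, was barely read. The control libraries held 3, 2 and 2 counts and the Rif1-KO libraries 5, 6 and 6 counts, or 0.324, 0.243 and 0.221 CPM against 0.452, 0.606 and 0.656 CPM. Each Rif1-KO library was above each control library, but on 7 and 17 counts in all. The ratio of the rates was 2.14 with an exact Poisson 95% interval from 0.843 to 6.10, which covers counting error only and includes no change. A difference of Bcl2 was thus not detected at these counts. When every gene with at least 1 count was tested, its log2 fold change was 1.06 ± 0.67 with an edgeR adjusted p of 0.256. Of its annotated exon bases, 6.09% overlap an antisense gene, D630008O14Rik, which had 0 counts in all 6 libraries.

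Both pore-forming genes fell. Bax stood at 159, 156 and 155 CPM in control and at 129, 131 and 124 CPM in Rif1-KO, with every Rif1-KO library below every control library. Its mean went from 157 ± 2.03 to 128 ± 3.45 CPM, 1.22-fold lower (edgeR adjusted p = 2.61e-05, log2 fold change −0.29 ± 0.05). With the GC and length offset the fall of Bax was smaller, −0.18 ± 0.04, with an edgeR adjusted p of 0.0019 (over its 16 alternatives the adjusted p ran from 2.58e-07 to 0.00241). Another gene on the same strand, Gm45808, which is not analysed here, covers 12.2% of Bax exon bases.

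Bak1 is the close counterpart of Bax that sits in the mitochondrial membrane also in unstressed cells. It had 72.4, 83.0 and 77.8 CPM in control and 68.0, 67.9 and 64.5 CPM in Rif1-KO. The groups did not overlap, although control replicate 1 came close to the Rif1-KO libraries. The mean fell from 77.7 ± 5.27 to 66.8 ± 1.96 CPM (edgeR adjusted p = 0.00474, log2 fold change −0.22 ± 0.06), 1.16-fold lower. In the annotation 25.5% of Bak1 exon bases lie opposite Ggnbp1, and whether the authors' counting used strand is not given in the sources used here. Ggnbp1 fell as well, from 25.0 ± 1.12 to 18.4 ± 2.16 CPM (edgeR adjusted p = 0.000883, log2 fold change −0.43 ± 0.10), and its part in the fall of Bak1 was not tested.

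Among the BH3-only members Pmaip1 changed most. NOXA, its product, is known to bind MCL1 and to promote its degradation, and the gene is a known target of p53 and of stress-induced ATF4. Pmaip1 stood at 25.4, 24.5 and 24.4 CPM in control and at 42.2, 45.8 and 45.7 CPM in Rif1-KO, with a wide gap between the groups. The mean rose 1.79-fold, from 24.8 ± 0.530 to 44.6 ± 2.04 CPM (edgeR adjusted p = 1.05e-08, log2 fold change 0.84 ± 0.07). A larger rise in log2 terms was seen in 6.85% of tested genes. It shares no 50-base stretch with another gene.

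Bbc3, another known p53 target, had 40.4, 52.1 and 45.7 CPM in control and 53.7, 52.7 and 53.7 CPM in Rif1-KO. The groups did not overlap, but control replicate 2 came within 1 CPM of the lowest Rif1-KO library. The mean went from 46.1 ± 5.85 to 53.4 ± 0.556 CPM (edgeR adjusted p = 0.0214, log2 fold change 0.22 ± 0.08). This rise was the least secure call among the members. The adjusted p was 0.0639 with DESeq2, and with edgeR it was 0.152 without control replicate 1 (log2 fold change 0.13), 0.0698 without control replicate 3 and 0.0555 without Rif1-KO replicate 1. Over its 16 alternatives the adjusted p of Bbc3 ran from 0.00194 to 0.152.

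Bid links death receptors to the mitochondrion, through its cleavage by caspase 8. It had 88.6, 80.7 and 85.2 CPM in control and 72.1, 71.4 and 67.7 CPM in Rif1-KO, so that all Rif1-KO libraries were lower. The mean fell 1.20-fold, from 84.8 ± 3.95 to 70.4 ± 2.37 CPM (edgeR adjusted p = 0.000437, log2 fold change −0.27 ± 0.06). Of its exon bases 17.7% lie opposite Bcl2l13, itself a distant family relative, and 24.5% of the 50-base stretches of its longest transcript recur in other genes. Bcl2l13 moved the other way, from 75.3 ± 6.20 to 86.4 ± 0.896 CPM (edgeR adjusted p = 0.00867, log2 fold change 0.20 ± 0.06). Reads of the shared bases cannot be assigned without the strand setting, and their part in either value was not tested.

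The remaining members, Bcl2l11 and Bad, did not pass. Bcl2l11, whose product BIM binds all pro-survival proteins, had 18.4, 19.0 and 19.5 CPM in control and 20.1, 21.7 and 22.3 CPM in Rif1-KO. Its groups did not overlap, yet the difference was small beside its error (edgeR adjusted p = 0.121, log2 fold change 0.17 ± 0.09). Bad, whose product is held inactive by phosphorylation in growing cells, had 7.78, 8.75 and 7.30 CPM in control and 8.22, 8.38 and 8.20 CPM in Rif1-KO. Its Rif1-KO libraries lay inside the control range (edgeR adjusted p = 0.725, log2 fold change 0.06 ± 0.13). The standard error of Bad was the largest among the tested members, on 66 to 91 counts per library. Antisense to 20.5% of Bad exon bases is Gpr137, which did not pass either (edgeR adjusted p = 0.688, log2 fold change 0.07 ± 0.13).

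To compare levels between members, CPM was divided by the length in kb of all annotated exons of the gene in GENCODE. In control the order was Mcl1 (120.3 ± 2.68 CPM per kb), Bax (99.4 ± 1.29), Bak1 (32.3 ± 2.19), Bid (23.9 ± 1.11), Bbc3 (21.7 ± 2.76), Pmaip1 (9.08 ± 0.194), Bcl2l1 (7.52 ± 0.683), Bad (3.11 ± 0.288), Bcl2l11 (2.36 ± 0.0678) and Bcl2 (0.0287 ± 0.00594). The neighbours Bid and Bbc3 overlapped between libraries in this order, and the other neighbours did not. In Rif1-KO Bbc3 stood above Bid (25.1 ± 0.262 against 19.8 ± 0.669 CPM per kb), and Pmaip1 and Bcl2l1 overlapped, at 16.3 ± 0.746 and 15.9 ± 0.157 CPM per kb. The order depends on the length used. Per kb of the longest transcript, Bax stood above Mcl1 in control (142 against 120.3 CPM per kb) and below it in Rif1-KO (116 against 162).

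Summed by role, the pro-survival genes moved one way and the pore-forming genes the other. The pro-survival sum was 131, 125 and 127 CPM per kb in the control libraries and 179, 180.1 and 175 CPM per kb in the Rif1-KO libraries. The sum of Bax and Bak1 was 131, 133 and 131 CPM per kb in control and 110.1, 111 and 106 CPM per kb in Rif1-KO. The groups were apart in both sums. Per kb of all exons the sums were about equal in control, but per kb of the longest transcript they were not, at 134 ± 3.80 for the pro-survival genes and 175 ± 1.20 for Bax and Bak1. In Rif1-KO those were 190.5 ± 2.62 and 144 ± 3.93 CPM per kb. The sum of the 5 BH3-only members went from 60.1 ± 1.74 to 67.2 ± 0.468 CPM per kb. It leaves out BH3-only genes that are not members. Of these, Bmf fell from 9.53 to 4.94 CPM per kb, Bik rose from 1.71 to 2.83, and Hrk did not pass. Mcl1 made up 94.1% ± 0.397 of the pro-survival sum in control and 91.0% ± 0.230 in Rif1-KO, so that sum is mostly the level of 1 gene. These sums are descriptions of members already tested one by one, and no test was made on them.

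**Figure D2:**
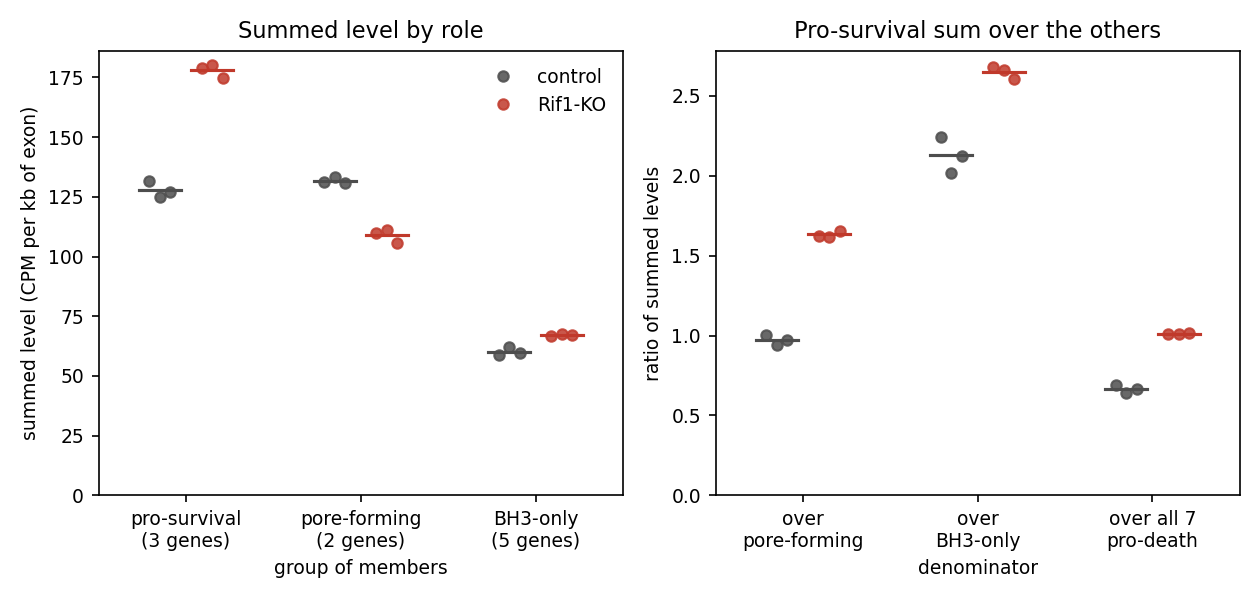
Left, summed level in CPM per kb of exon for the pro-survival, pore-forming and BH3-only members in each library; right, the pro-survival sum divided by each of the other sums. Points are libraries (control grey, Rif1-KO red), bars are means, and both axes start at 0. The ratio to all 7 pro-death members is 0.641 to 0.693 in control and 1.01 in each Rif1-KO library.

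The ratio of the pro-survival sum to the sum of all 7 pro-death members was 0.693, 0.641 and 0.666 in the control libraries and 1.01 in each of the Rif1-KO libraries. The ratio of the group means was 1.52. With the longest transcript as the length the ratio went from 0.528 ± 0.0195 to 0.832 ± 0.00451, and without Mcl1 from 0.0394 ± 0.00398 to 0.0905 ± 0.00253. All 3 versions were higher in every Rif1-KO library, while their levels depended on length and on Mcl1. They reuse the counts of the same members, and without Mcl1 the pro-survival sum is nearly all Bcl2l1. The 3 versions are thus not separate from the single-gene results.

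Ratios between single partners differed in direction. Bcl2l1 over Bax, both per kb, was 0.0822, 0.0730 and 0.0714 in control and 0.193, 0.190 and 0.204 in Rif1-KO, a rise in all libraries. Mcl1 over Bak1 went from 3.74 ± 0.338 to 5.84 ± 0.0738. Mcl1 over Pmaip1, its known antagonist, was lower in Rif1-KO, at 10.6, 9.81 and 9.49 against 13.2, 13.1 and 13.4 in control. Pmaip1 rose 1.79-fold and Mcl1 1.35-fold. Bax over Bak1 was 3.35, 2.86 and 3.05 in control and 2.90, 2.94 and 2.94 in Rif1-KO, with overlapping groups. Within the BH3-only sum the share of Pmaip1 went from 15.1% ± 0.701 to 24.3% ± 0.990 and that of Bid from 39.8% ± 2.98 to 29.5% ± 1.01. RNA levels do not give the amounts, the splice forms or the modification of these proteins.

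**Figure D3:**
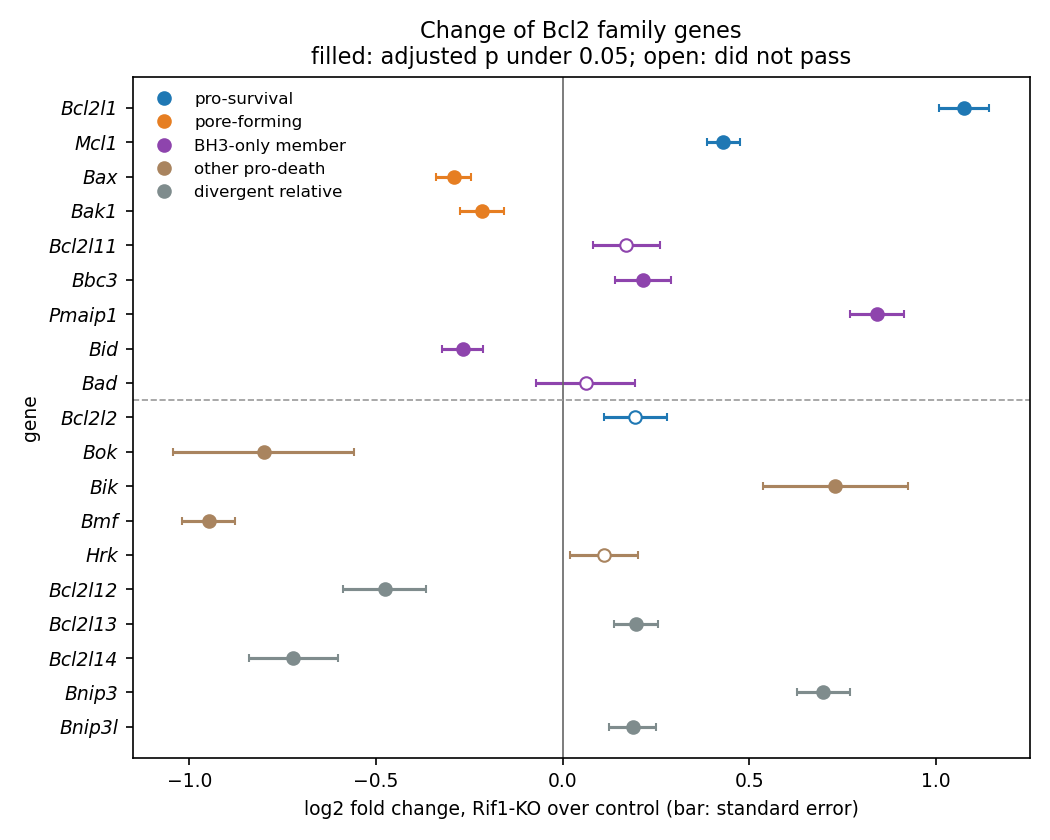
Log2 fold change of Rif1-KO over control with its standard error for the 9 tested members (above the dashed line) and 10 other tested family genes (below). Filled points passed an adjusted p under 0.05. Bcl2l1 (1.08) is farthest to the right and Bmf (−0.95) farthest to the left.

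Other family genes, outside the 10, were also read. Among further pro-survival genes Bcl2l2, which encodes BCL-W, was the single one tested. It stood at 29.8, 24.9 and 26.1 CPM in control and 28.7, 32.7 and 31.5 CPM in Rif1-KO, overlapping (edgeR adjusted p = 0.0631, log2 fold change 0.20 ± 0.09). Bcl2l10 had 3 counts in control and 6 in Rif1-KO, and Bcl2a1a, Bcl2a1b and Bcl2a1d had none. By counting error alone, 0 counts allow up to 0.113 CPM over the control group and 0.0996 CPM over the Rif1-KO group. However, 69.0%, 79.2% and 79.5% of the 50-base stretches of these 3 genes recur in other genes. The handling of multi-mapping reads is not given, so 0 counts do not limit their level. Mcl1, Bcl2l1 and Bcl2l2 were the pro-survival genes with more than a few counts, while the level of the Bcl2a1 genes stays unknown.

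Of 4 further pro-death genes, 2 fell, 1 rose and 1 did not pass, with a median log2 fold change of −0.34. That is 75% changed, beside 50.9% of all tested genes. Bmf encodes a BH3-only protein that is held at the cytoskeleton in attached cells. It fell by almost as much as Bcl2l1 rose, from 51.1, 47.6 and 51.4 CPM to 26.1, 27.0 and 24.7 CPM, with the groups far apart (edgeR adjusted p = 1.28e-09, log2 fold change −0.95 ± 0.07). Bik, a BH3-only gene of the endoplasmic reticulum, was low and rose from 2.72 ± 0.343 to 4.51 ± 0.171 CPM (log2 fold change 0.73 ± 0.19). Bok, a relative of Bax and Bak1, fell from 2.89 ± 0.306 to 1.66 ± 0.227 CPM (log2 fold change −0.80 ± 0.24). That call of Bok was lost with DESeq2 (adjusted p = 0.0608, with a range from 0.00895 to 0.0608 over its 15 alternatives).

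All 5 tested members of a list of divergent relatives changed, 3 up and 2 down, beside 50.9% of all tested genes, with a median of 0.19. Bnip3, a mitophagy receptor induced in hypoxia, rose from 35.7 ± 3.29 to 57.8 ± 2.41 CPM (log2 fold change 0.70 ± 0.07), but 62.4% of its 50-base stretches recur in other genes. Bcl2l14 fell from 15.8 ± 0.969 to 9.61 ± 1.16 CPM (log2 fold change −0.72 ± 0.12), and Bcl2l12 fell as well (log2 fold change −0.48 ± 0.11). Of the exon bases of Bcl2l12, 33.4% lie opposite other genes.

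Beyond the family, 65 genes of the apoptosis pathway had been listed, in 9 lists that include those of the family above. The 59 tested held 19 that rose, 19 that fell and 21 that did not pass, which is 64.4% changed beside 50.9% of all tested genes, with a median log2 fold change of 0.02. With the GC and length offset 12 rose and 23 fell.

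Downstream of the pore, 2 of 7 genes of cytochrome c, the apoptosome and the caspases rose, 1 fell and 4 did not pass. That is 42.9% changed, beside 50.9% of all tested genes. Apaf1, the scaffold of the apoptosome, rose from 138 ± 7.33 to 165 ± 10.2 CPM (log2 fold change 0.26 ± 0.05). The somatic cytochrome c gene Cycs rose from 24.0 ± 2.82 to 28.9 ± 1.19 CPM (log2 fold change 0.27 ± 0.09), with 28.5% of its stretches recurring in other genes. The Cycs call was lost with DESeq2 (adjusted p = 0.0546). In edgeR it was also lost when control replicate 3 was left out (adjusted p = 0.11) or Rif1-KO replicate 2 (adjusted p = 0.0533). With the offset neither Apaf1 (adjusted p = 0.135) nor Cycs (adjusted p = 0.206) passed. Over 16 alternatives the adjusted p ran from 7.82e-06 to 0.135 for Apaf1 and from 0.00354 to 0.206 for Cycs.

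Caspase inhibitors and their antagonists had 3 that rose, 1 that fell and 3 that did not pass, with a median of 0.22. In this list 57.1% changed, beside 50.9% of all tested genes. Birc2, which encodes cIAP1, rose from 74.1 ± 3.96 to 92.5 ± 1.71 CPM (log2 fold change 0.32 ± 0.05). Xiap, a direct inhibitor of caspases, rose from 111 ± 3.14 to 132 ± 2.92 CPM (log2 fold change 0.25 ± 0.05), but with the offset it did not pass (0.02 ± 0.05). Birc5, which encodes survivin, a protein also needed in mitosis, fell from 137 ± 8.50 to 108 ± 3.73 CPM (log2 fold change −0.34 ± 0.05). Among 6 outer membrane partners and other released proteins 3 fell and none rose, a share of 50% called that is near the 50.9% over all tested genes. Vdac2, a channel known to hold BAK at the membrane, fell from 275 ± 8.61 to 223 ± 2.29 CPM (log2 fold change −0.30 ± 0.04). Aifm1, a flavoprotein of the space between the mitochondrial membranes, fell by 0.28 ± 0.05 and the channel gene Vdac1 by 0.15 ± 0.04 on the log2 scale.

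All 8 genes of the death receptor arm passed, 5 up and 3 down, beside 50.9% of all tested genes, with a median of 0.36. The libraries of Casp8, among the 5, overlapped between the groups. Tnfrsf10b, the mouse receptor for TRAIL and a known p53 target, rose from 64.9 ± 2.81 to 84.9 ± 7.05 CPM (log2 fold change 0.39 ± 0.06). Tnfrsf1a, a TNF receptor gene, fell from 27.9 ± 1.83 to 20.8 ± 1.80 CPM (log2 fold change −0.42 ± 0.09). The adaptor gene Fadd fell from 7.07 ± 1.35 to 4.65 ± 0.292 CPM (log2 fold change −0.59 ± 0.17), a call lost without control replicate 2 (edgeR adjusted p = 0.0511, with a range from 0.00188 to 0.0511 over its alternatives).

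For the turnover and sequestration of family proteins 12 genes were tested, of which 2 rose, 4 fell and 6 did not pass, with a median of −0.01. The share that changed, 50%, was near the 50.9% over all tested genes. Pim3, from a family of kinases that phosphorylate BAD, rose from 186 ± 15.4 to 240.1 ± 21.9 CPM (log2 fold change 0.37 ± 0.06). Dynll1, a dynein light chain that binds BIM, fell from 153 ± 5.84 to 128 ± 2.01 CPM, and Ywhae, a 14-3-3 protein gene of the kind that holds phosphorylated BAD, by 0.20 ± 0.04 on the log2 scale.

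Transcription factors of the family and their regulators were divided, with 3 of 9 up, 3 down and 3 that did not pass. Of these 9, 66.7% changed, beside 50.9% of all tested genes. Trp53, the activator of Bax, Bbc3 and Pmaip1 after DNA damage, fell from 227, 234 and 229 CPM to 139.6, 135 and 133 CPM, with the groups far apart (edgeR adjusted p = 4.56e-11, log2 fold change −0.76 ± 0.04). These 3 targets did not share a direction, as Bax fell while Bbc3 and Pmaip1 rose, and the part of Trp53 in their changes was not tested. E2f1 fell from 86.6 ± 7.31 to 59.0 ± 4.14 CPM (log2 fold change −0.55 ± 0.07). Foxo3, an activator of Bcl2l11 and Bbc3, rose from 202 ± 10.2 to 259 ± 3.94 CPM (log2 fold change 0.36 ± 0.05).

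**Figure D4:**
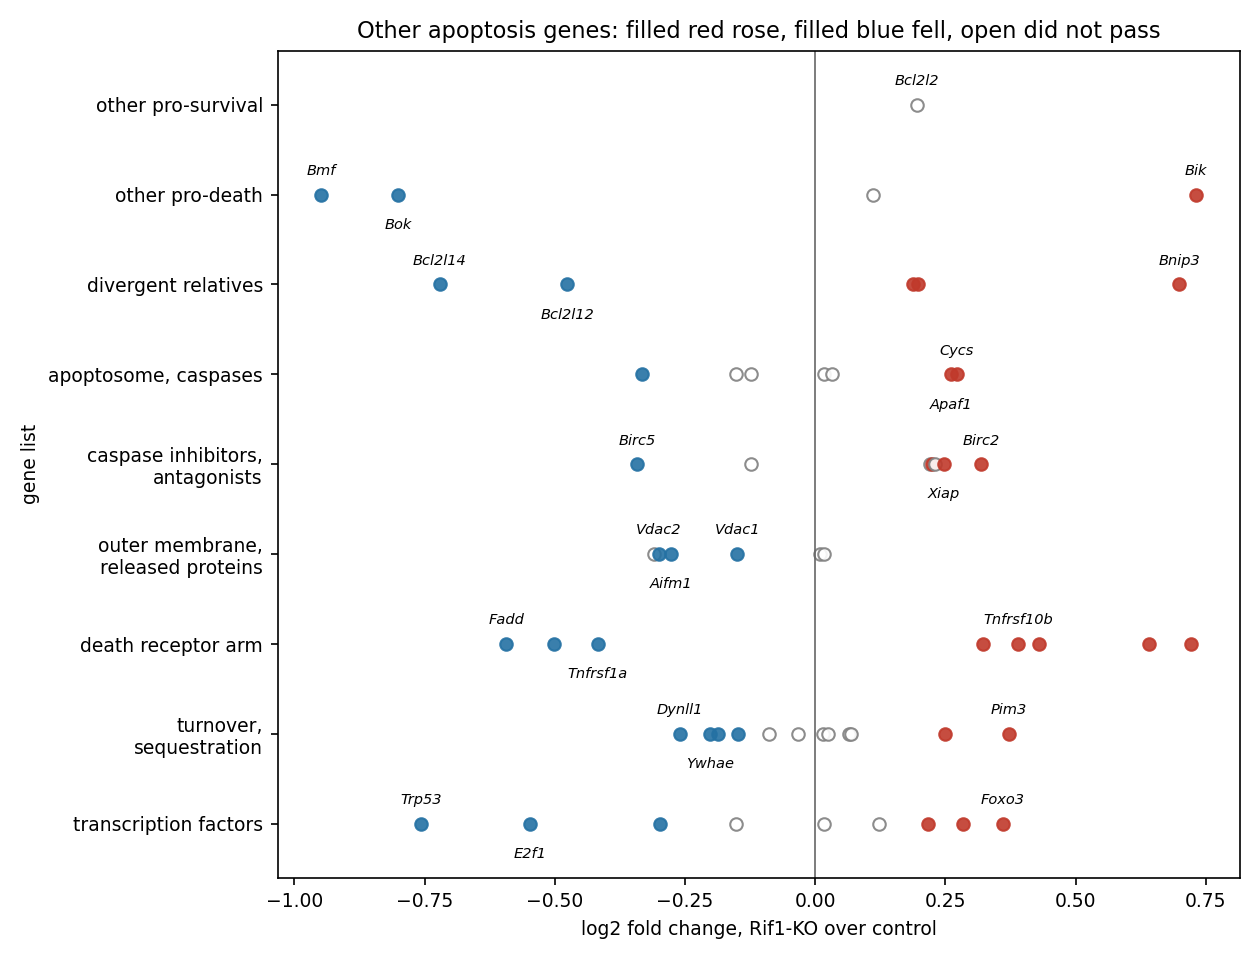
Log2 fold change of Rif1-KO over control for the 59 tested genes of 9 apoptosis lists, 1 list per row and 1 point per gene. Filled red points rose, filled blue points fell and open points did not pass. In the row of the death receptor arm all 8 points are filled, and in that of the outer membrane partners the 3 filled points lie left of 0.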

How the data were processed

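The tables deposited by the authors hold raw read counts for each gene symbol, in 1 table per library. Per the submitters' processing notes, STAR and featureCounts 1.6.2 were used with build mm9. The strand setting, like the annotation version and the handling of multi-mapping reads, is not given in the sources used here, so overlapping genes and near-identical copies are uncertain. Samples were grouped by their titles. The counts were fitted in R 4.3.3 by edgeR 4.0.16 (filterByExpr with a minimum count of 10, TMM scaling, quasi-likelihood test, group as the only term, Benjamini-Hochberg adjustment over 14250 genes), after the fit was tested on simulated data. In that simulation far fewer genes changed than here, with rises and falls balanced, so it does not check the scaling under a change this wide. CPM used TMM-scaled library sizes. Nothing in the labels says that the replicates were cultured separately. The p-values set each group difference against the spread within the groups of these samples only, and that spread could be technical. Poisson intervals and the floor of 3 counts per group cover counting error only. Exon lengths, shared sequence and overlaps came from GENCODE vM21 (GRCm38), which matched 30958 of 33924 symbols, and promoters from RefSeq.

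The alternatives were DESeq2 1.42.0, limma-voom (limma 3.58.1), other scalings, other filters, a replicate block, an offset for GC content and length (mgcv 1.9.3; 97.5% of tested genes had a value) and leaving out each library. All 10 members were named, with Rif1 and, from each list, the genes with the lowest adjusted p among those that passed (at most 3), or the 2 most expressed where none passed. A single gene that the rule names is not reported here. The members and lists were chosen with earlier results of these data known.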

Additional observations from a re-analysis of the deposited data

How the results depend on the processing

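Over 16 alternatives, the 9 tested members kept their direction in all 144 values and their side of the threshold in 140. The 4 exceptions were calls of Bbc3, given with that gene. The count of members was 3 or 4 higher and 3 lower under each alternative. Leaving out 1 library gave 3 to 4 members higher and 3 lower, 15 to 19 other apoptosis genes higher and 19 lower, and 3288 to 3667 genes higher and 3037 to 3432 lower over all tested genes. The other apoptosis genes that rose, 19 in number, were 12 with the GC and length offset and 12 with the offset and a replicate block together. Over all tested genes the median log2 fold change was −0.065 with the offset and 0.003 without it. The cause of the lower count was not tested.

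Rif1, at −0.12 in log2 terms, passed with limma-voom (−0.12), RLE size factors (−0.12), upper-quartile scaling (−0.12), no filter on low counts (−0.12), a replicate block (−0.12), the offset (−0.34) and the offset with the block (−0.34). Without 1 library it ran from −0.17 to −0.094, passing without control replicate 2 or Rif1-KO replicate 3. Gpr137, at 0.07, ran from −0.012 without Rif1-KO replicate 1 to 0.137 without Rif1-KO replicate 3.

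Whether the replicate numbers pair the libraries was not settled. Same-numbered libraries had correlations of their deviations of 0.0961, −0.0720 and 0.0542. Control replicate 1 correlated best with Rif1-KO replicate 2 (0.109), and the largest value was for control replicate 2 with Rif1-KO replicate 3 (0.131). The deviations were taken from the mean of each group, so these small values offset one another and cannot exclude a pairing. With the replicate block 4 members were higher and 3 lower, and 7386 genes changed in place of 7251. Among the 10 members depth limits Bcl2 most, at 7 counts in control.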

Other observations

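Some genes of the same lists fell outside the rule for named genes and were picked after their values were seen. Mdm2, a p53 target that encodes the ligase for p53, rose from 254 ± 2.54 to 296 ± 4.11 CPM (mean ± SD of n = 3 libraries; edgeR adjusted p = 0.00029, log2 fold change 0.22 ± 0.04), while Trp53 fell. Atf4, the stress factor known to activate Pmaip1, fell from 248 ± 3.03 to 202 ± 7.06 CPM (log2 fold change −0.30 ± 0.04), and Ddit3, itself a target of ATF4, rose from 70.5 ± 5.01 to 85.9 ± 5.32 CPM (log2 fold change 0.28 ± 0.06).

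Huwe1, a ubiquitin ligase for MCL1, fell by 0.19 ± 0.05 on the log2 scale, from 1198 ± 28.9 to 1053 ± 63.8 CPM (adjusted p = 0.00377 by edgeR). Usp9x, which removes ubiquitin from MCL1, had 658 ± 20.8 and 688 ± 32.8 CPM and did not pass (log2 fold change 0.07 ± 0.05, adjusted p = 0.269), nor did Fbxw7, part of another ligase for MCL1 (log2 fold change 0.03 ± 0.06, adjusted p = 0.751). Casp8, the caspase that cleaves BID, was low, at 2.81 ± 1.21 and 4.41 ± 1.02 CPM, and passed (adjusted p = 0.0396 by edgeR) although control replicate 3, at 4.20 CPM, lay inside the Rif1-KO range, which began at 3.61 CPM. Fas, a death receptor gene and known p53 target, rose from 2.39 ± 0.511 to 3.96 ± 0.505 CPM (log2 fold change 0.72 ± 0.22).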
